A study of Mus musculus with 6 samples.

Results

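Zbtb16 was examined in the infarcted mouse heart together with genes that the glucocorticoid receptor is known to induce and with the receptors themselves, to see whether its lower level in mice without the TSLP receptor went along with these genes or stood apart from them. The 9 genes were taken from the deposited expression table by their names, out of 54532 listed genes. They were Zbtb16, Fkbp5, Tsc22d3, Klf9, Sgk1, Mt1 and Mt2 as induced genes and Nr3c1 and Nr3c2 as receptors. All 9 were among the 15520 genes with enough fragments to be tested. The set was chosen by the lower Zbtb16 values in the knockout libraries, so that difference between the groups is given as a description without a test.

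The glucocorticoid receptor is a transcription factor that is held in the cytoplasm by HSP90 and its co-chaperones until a steroid such as corticosterone binds it. It then enters the nucleus and binds palindromic response elements in DNA, and genes such as Fkbp5 and Tsc22d3 serve widely as readouts of its activity. Zbtb16 encodes PLZF, a zinc finger repressor with a BTB domain that directs the development of NKT cells and other innate-like lymphocytes, and it is also strongly induced by glucocorticoids in many cell types. A change of Zbtb16 in a whole tissue can therefore be set beside both kinds of gene.

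RNA came from peri-infarcted and infarcted heart tissue taken on day 7 after ligation of the left anterior descending coronary artery, from 3 WT and 3 TSLPR KO mice labelled C57BL/6, with 1 library per mouse. TSLPR is the receptor subunit for thymic stromal lymphopoietin, encoded by Crlf2, and the knockout (Crlf2-/-) is a line made by a company on the C57BL/6J background, whereas the WT mice were bought as adult males from another supplier. Genotype and origin of the mice cannot be told apart here, and every mouse had an infarct, so no uninjured heart or hormone-treated animal was among these 6 libraries. The libraries held 18508646 to 19682428 fragments on genes. The labels describe the extraction for another tissue, the retina, but the tissue label is heart and the 10 cardiomyocyte markers summed to between 709 and 2002 FPKM in every library. Crlf2 itself was at 26.6, 24.8 and 21.8 FPKM in WT 1 to WT 3 and at 13.3, 18.6 and 19.8 FPKM in KO 1 to KO 3, so its transcript was lower in each knockout library but present in all of them, and whether the deleted part was among these fragments was not analysed here.

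Levels are given as FPKM, that is fragments scaled to the length of the gene and the depth of the library, after a scaling between libraries that moved them by little more than 1%. Since FPKM is a level per length, the genes can be ordered by it, but the order depends on the length listed for each gene. Which transcripts of a gene were expressed was not examined. In WT hearts Mt1 was highest, with a mean of 73.5 FPKM, followed by Tsc22d3 at 24.3, Sgk1 at 17.1, Nr3c1 at 16.9, Fkbp5 at 10.7, Klf9 at 10.4, Mt2 at 5.36, Zbtb16 at 1.56 and Nr3c2 at 0.315 FPKM. The WT libraries overlapped between Sgk1 and Nr3c1, and those of Fkbp5 overlapped with Nr3c1, Klf9 and Mt2, so the order of those genes was within the spread. Zbtb16 was thus a low-level transcript of this tissue next to most of the other induced genes.

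Regulatory sequence near the start of 3 members is shown first, because the classical steroid response element was sought in them and because Mt1 and Mt2, neighbours in the genome, differed in their values. RefSeq promoter windows of build GRCm38.p6, each holding 250 bases before and 50 bases after a listed start, were found for 7 of the 9 genes, with 14 windows in all, and none was at hand for Zbtb16 or Nr3c1. The palindrome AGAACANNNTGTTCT, which reads the same on both strands, occurred in 3 of 32851 windows in the table (0.00913%). One of them belonged to Sgk1, whose gene start there lies within the longer gene model, in the window chr10:21993640-21993939 on the plus strand, and capitals mark the element at chr10:21993701-21993715, starting 189 bases before the start.
Sgk1: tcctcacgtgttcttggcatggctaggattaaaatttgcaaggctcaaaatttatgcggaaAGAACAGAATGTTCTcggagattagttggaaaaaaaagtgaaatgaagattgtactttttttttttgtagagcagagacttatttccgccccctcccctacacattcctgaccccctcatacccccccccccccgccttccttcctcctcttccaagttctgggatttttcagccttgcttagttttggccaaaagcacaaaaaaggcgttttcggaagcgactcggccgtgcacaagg
A looser form of the same palindrome, GNACANNNTGTNC, was in 0.475% of all windows, and besides this Sgk1 window it was found in that of Mt1, starting 94 bases before the start. The metal response element core, TGCACNC or TGCGCNC searched on both strands, was in 25.7% of all windows, and it occurred at 3 places in the Mt1 window chr8:94178839-94179138 and at 4 places in the Mt2 window chr8:94172368-94172667, both on the plus strand. It also occurred at 1 place each in the Nr3c2 window and in another Sgk1 window. In the next lines capitals mark the looser palindrome, as the 13-base run in Mt1, and the 7-base metal cores.
Mt1: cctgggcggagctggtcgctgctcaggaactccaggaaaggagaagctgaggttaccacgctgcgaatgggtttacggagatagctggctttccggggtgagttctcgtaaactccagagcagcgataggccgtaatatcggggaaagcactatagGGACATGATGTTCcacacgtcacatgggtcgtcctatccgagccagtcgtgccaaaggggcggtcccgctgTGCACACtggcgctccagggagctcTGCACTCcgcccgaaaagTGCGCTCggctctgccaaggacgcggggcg
Mt2: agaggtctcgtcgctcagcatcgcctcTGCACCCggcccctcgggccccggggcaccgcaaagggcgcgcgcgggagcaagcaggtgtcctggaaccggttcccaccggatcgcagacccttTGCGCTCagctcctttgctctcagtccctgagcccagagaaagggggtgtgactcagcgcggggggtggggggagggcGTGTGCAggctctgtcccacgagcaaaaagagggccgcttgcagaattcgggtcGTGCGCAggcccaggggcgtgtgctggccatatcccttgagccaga
Neither palindrome was in the windows of Fkbp5, Tsc22d3, Klf9, Mt2 or Nr3c2, which says only that these letters are not within those bases. The arm of the strict palindrome, TGTTCT on either strand, was in 19.0% of all windows, and among the members it occurred in windows of Sgk1 and Tsc22d3. These matches are a description of letters, not of binding.

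Zbtb16 (chromosome 9, 48654297 to 48836222, minus strand) stood at 1.70, 1.69 and 1.30 FPKM in WT 1 to WT 3. In the TSLPR KO hearts it stood at 0.335, 0.291 and 0.530 FPKM. Every knockout library lay well below every WT library, with KO 3 the highest of its group and WT 3 the lowest of its group. Behind these values were 207, 195 and 149 fragments in WT and 39, 36 and 63 in KO. The exact Poisson interval at 95%, which covers counting error only and not the spread between mice, ran from 48.4 to 80.6 fragments for KO 3 and from 126 to 175 for WT 3. The log2 fold change of the knockout against WT was -1.80 (SE 0.24, n = 3 per group), or 0.288 times WT on the scale of FPKM + 0.1. The added 0.1 understates the difference for a gene this low, and voom on the fragments gave -2.05. On the FPKM scale the log2 fold change was the 21st most negative of the 15520 genes tested.

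**Figure D1:**
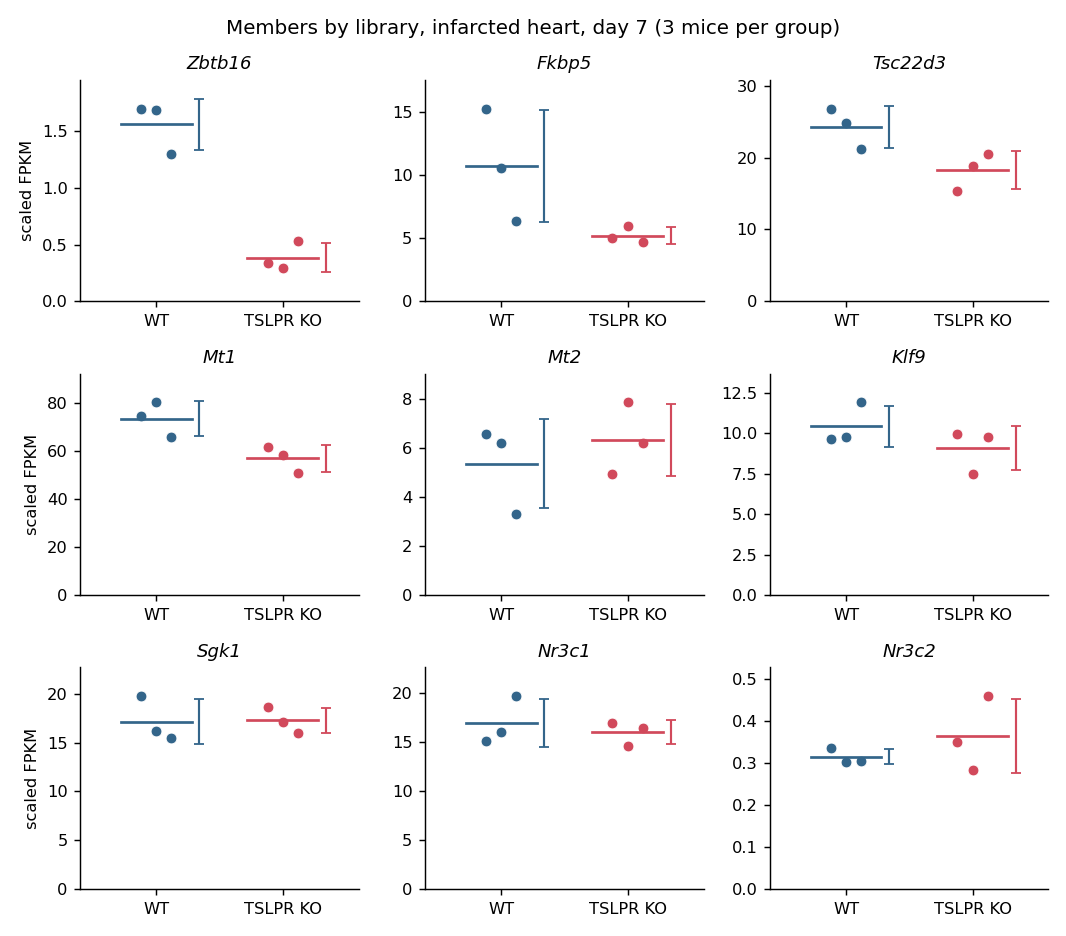
Scaled FPKM (linear axis from 0) of the 9 genes in each of the 3 WT and 3 TSLPR KO libraries, with points for libraries, horizontal bars for group means and vertical bars for the SD. Every KO point lies below every WT point for Zbtb16, Fkbp5, Tsc22d3 and Mt1, and the groups overlap for Mt2, Klf9, Sgk1, Nr3c1 and Nr3c2.

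The receptors that would carry a glucocorticoid signal overlapped between the groups. Nr3c1, which encodes the glucocorticoid receptor, was at 15.1, 15.9 and 19.6 FPKM in WT and at 16.9, 14.6 and 16.4 FPKM in KO. The groups overlapped, and the log2 fold change was -0.08 (SE 0.13, adjusted p = 0.994 by limma over all genes tested), turning to 0.04 without WT 3. Nr3c2 (chromosome 8, 76899442 to 77245012, plus strand) encodes the mineralocorticoid receptor, which binds the same steroids with high affinity. It was close to the limit of these libraries, at 0.335, 0.303 and 0.306 FPKM in WT and 0.350, 0.284 and 0.460 FPKM in KO, from 43 to 67 fragments. The log2 fold change was 0.15 (SE 0.22, adjusted p = 0.994 by limma). Neither receptor gene was therefore lower in the knockout to an extent that these 6 libraries could show.

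Among the induced genes, Fkbp5 came nearest to Zbtb16. It encodes FKBP51, a co-chaperone that lowers the affinity of the receptor for hormone and so closes a negative feedback loop (chromosome 17, 28399094 to 28517527, minus strand). Its level was 15.3, 10.6 and 6.33 FPKM in WT and 5.01, 5.96 and 4.67 FPKM in KO. The WT mice were spread widely, and WT 3 lay only just above KO 2, the highest knockout library. The log2 fold change was -0.94 (SE 0.28), which did not pass the test after adjustment (adjusted p = 0.473 by limma). It ranged from -0.65 without WT 1 to -1.27 without WT 3.

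Tsc22d3 (chromosome X, 140539528 to 140600659, minus strand) encodes GILZ, a leucine zipper protein through which glucocorticoids restrain inflammatory gene expression. It was at 26.8, 24.9 and 21.2 FPKM in WT and at 15.3, 18.8 and 20.55 FPKM in KO. The groups did not overlap, but KO 3 came close to WT 3. The log2 fold change was -0.41 (SE 0.14, adjusted p = 0.573 by limma).

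The metallothioneins Mt1 and Mt2, small metal-binding proteins induced by zinc, cadmium and glucocorticoids, gave different values. Mt1 (chromosome 8, 94179082 to 94180327, plus strand) was at 74.5, 80.3 and 65.9 FPKM in WT and at 61.8, 58.3 and 50.8 FPKM in KO. All knockout values were lower than all WT values, with a log2 fold change of -0.37 (SE 0.13, adjusted p = 0.569 by limma). Mt2 (chromosome 8, 94172664 to 94173568, plus strand) was at 6.57, 6.21 and 3.29 FPKM in WT and at 4.93, 7.85 and 6.19 FPKM in KO. The groups overlapped, from only 42 to 108 fragments per library, and the log2 fold change was 0.27 (SE 0.28, adjusted p = 0.977 by limma), or -0.04 without WT 3. How fragments that fit both of these similar genes were counted is not stated, so the split between them is uncertain. The difference between their changes was not tested. Of 8 further genes of metal handling, 6 were tested, and their median log2 fold change was 0.04, with Mtf1, the zinc sensor that activates both metallothioneins, at -0.09.

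Klf9 and Sgk1 had overlapping groups. Klf9 (chromosome 19, 23141226 to 23166911, plus strand), a Krüppel-like factor that glucocorticoids induce quickly, was at 9.66, 9.74 and 11.9 FPKM in WT and at 9.98, 7.49 and 9.79 FPKM in KO. KO 2 alone was clearly lower, and the log2 fold change was -0.20 (SE 0.14, adjusted p = 0.929 by limma). Sgk1 (chromosome 10, 21882184 to 21999903, plus strand) encodes a kinase that controls sodium transport and cell survival, and its window above holds the exact palindrome. It was at 19.7, 16.2 and 15.5 FPKM in WT and at 18.6, 17.1 and 16.0 FPKM in KO, from at least 1644 fragments. The knockout values lay inside the WT range, with a log2 fold change of 0.02 (SE 0.12, adjusted p = 0.996 by limma), and the sign was the other way at -0.01, -0.05 and -0.04 without WT 2, WT 3 and KO 1.

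Counted together, 5 of the 8 genes other than Zbtb16 had a negative log2 fold change and 3 a positive one, with a median of -0.14 against -0.0044 over all genes tested. A gene was called where its adjusted p did not exceed 0.05 and its log2 fold change was 0.5 or more in size. By this rule limma called 0 of the 8, and it called 2 genes in the whole table (0.0129%). At an unadjusted p under 0.05, 3 of the 8 were lower in the knockout, against 3.36% of all genes, and 0 were higher, against 3.2% of all genes. Voom on the fragments also called 0 of these 8 and 2 genes in the whole table. With the same cut-offs and another method, the paper reports many more changed genes and lists Zbtb16 among those downregulated. Few calls here therefore do not mean that the libraries hold few differences, and the reason for the gap was not tested. In 3 of the 8, Fkbp5, Tsc22d3 and Mt1, every knockout library lay below every WT library, as it did for 6.42% of all genes tested. An exact two-sided permutation test of 3 against 3 mice cannot go below p = 0.1, the value for these 3 genes. The genes had been picked with results of these data known, so the shares are no independent evidence.

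**Figure D2:**
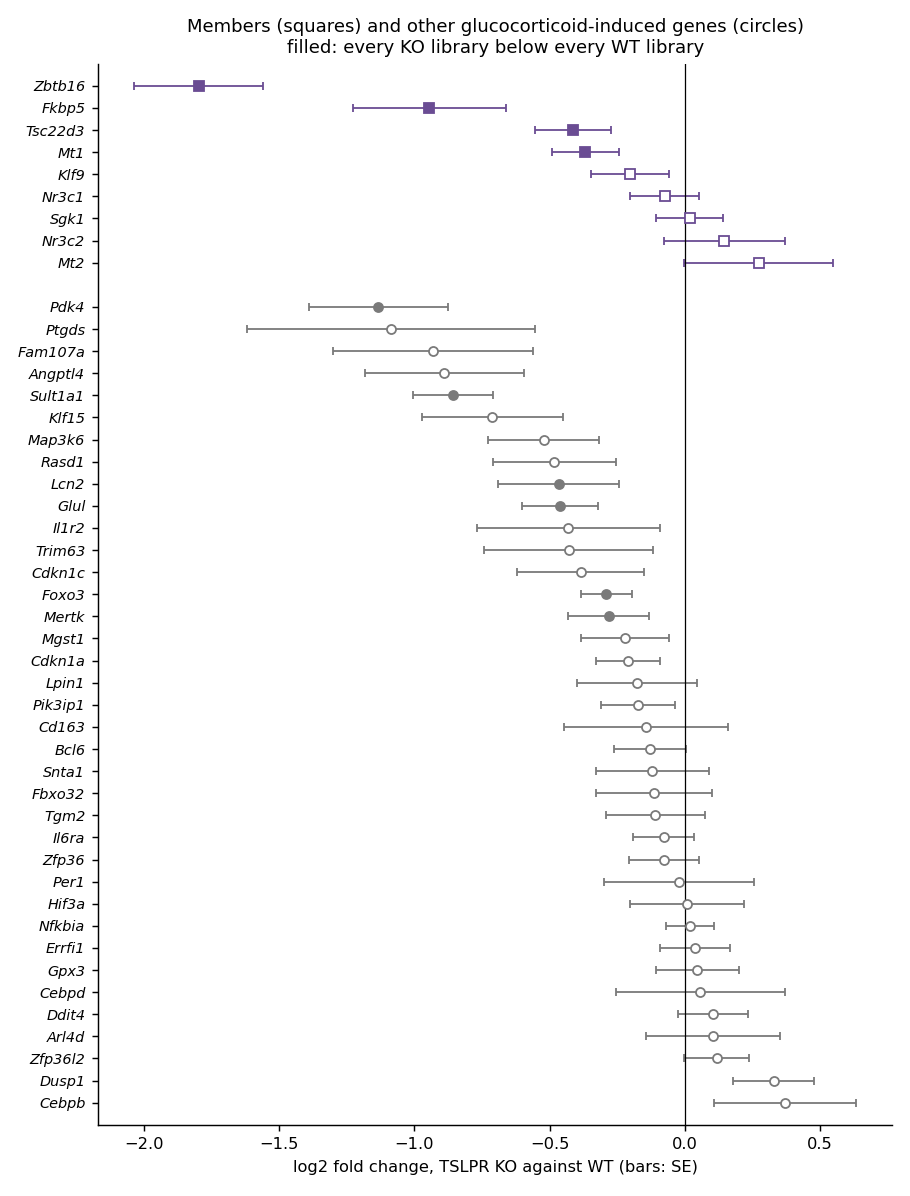
Log2 fold change of TSLPR KO against WT (x axis) with its SE for the 9 genes (squares) and for 37 other glucocorticoid-induced genes (circles), filled where every KO library lay below every WT library. Zbtb16 at -1.80 lies farthest to the left, and the other genes reach from -1.13 for Pdk4 to 0.37 for Cebpb.

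The distance between Zbtb16 and each of the other genes was followed in every library as the log2 ratio of their FPKM. The ratio of Zbtb16 to Tsc22d3 was -3.98, -3.88 and -4.02 in WT and -5.52, -6.02 and -5.28 in KO. It was steady among the WT mice and differed by -1.64 in the knockout mice, so Zbtb16 was lower by more than Tsc22d3 was. The same held without overlap for Mt1, Klf9, Sgk1, Mt2, Nr3c1 and Nr3c2, where the mean ratio differed by -1.69, -1.85, -2.08, -2.34, -1.98 and -2.24. Fkbp5 was the exception. Its ratio was -3.17, -2.65 and -2.28 in WT and -3.90, -4.35 and -3.14 in KO, and the groups overlapped since KO 3 lay just above WT 1. These ratios contain the Zbtb16 difference that led to the choice of genes and are given without a test.

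Variation between mice of the same genotype does not contain that difference. After the group mean was removed from log2(FPKM + 0.1), Zbtb16 deviated by 0.13, 0.11 and -0.24 in WT 1 to WT 3 and by -0.13, -0.28 and 0.41 in KO 1 to KO 3. Tsc22d3 followed it in part, with deviations of 0.15, 0.04 and -0.19 in WT and -0.24, 0.06 and 0.18 in KO (Pearson r = 0.68 over 6 libraries). Fkbp5 followed it in the WT mice only, with 0.60, 0.07 and -0.66 there but -0.05, 0.20 and -0.15 in KO (r = 0.24). The r was 0.32 for Mt2, 0.14 for Klf9, -0.02 for Sgk1, -0.22 for Mt1 and -0.21 for Nr3c1. Nr3c2 had the highest r of the 8, at 0.88, on its few fragments. It deviated by 0.07, -0.04 and -0.03 in WT and by -0.03, -0.26 and 0.29 in KO, so this r rested mostly on the KO libraries. Over the 6 induced genes the median r was 0.19, and it moved from -0.31 without WT 3 to 0.66 without KO 3. Across the other 15519 tested genes the quartiles of r were -0.35 and 0.35, so values within or near that range are frequent with 6 libraries. A higher r than that of Tsc22d3 was found for 6.73% of tested genes, and a higher one than that of Nr3c2 for 1.29%.

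**Figure D3:**
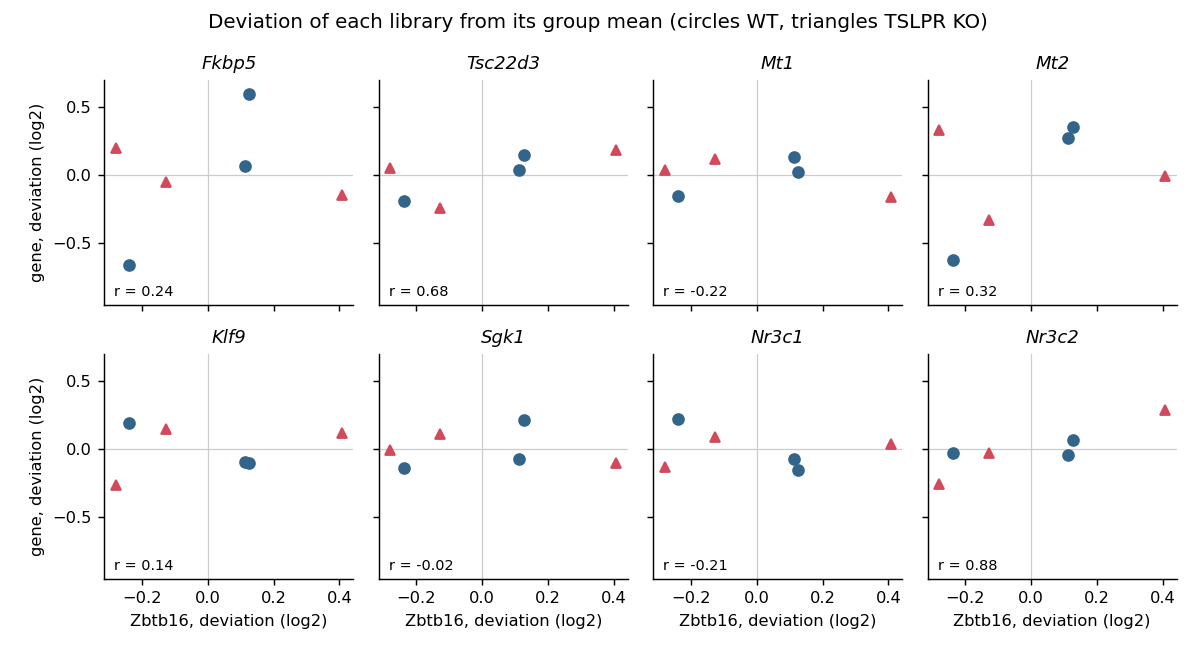
Deviation of each library from its group mean in log2 units, with Zbtb16 on the x axis and each of the 8 other genes on the y axis (circles WT, triangles TSLPR KO, r within groups in each panel). Points rise together for Tsc22d3 (r = 0.68). For Nr3c2 (r = 0.88) the KO points rise while the WT points differ little, and for Fkbp5 the WT points rise while the KO points do not.

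Among all 36 pairs of the 9 genes, the within-group r ran from -0.98 for Mt2 with Nr3c1 to 0.90 for Klf9 with Nr3c1, and 18 pairs were above 0. Fkbp5 went with Mt2 (r = 0.87), Sgk1 (r = 0.78) and Tsc22d3 (r = 0.59), and opposite to Nr3c1 (r = -0.93) and Klf9 (r = -0.73). WT 3 was low in Fkbp5, Mt2 and Tsc22d3 and high in Nr3c1 and Klf9. The 9 genes thus held no single order of the mice.

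Genes most like Zbtb16 were sought among 12130 genes with a mean of at least 1 FPKM. Over the 6 libraries, where the group difference enters, the highest r was that of Ctsw, a cathepsin of NK cells and cytotoxic T cells (r = 0.994), followed by Kctd20, Cd34, Rhbdl3 and the immunoglobulin gene Ighg2c. Ctsw was at 5.07, 4.97 and 3.89 FPKM in WT and at 2.10, 2.05 and 2.52 FPKM in KO, the same order of low and high mice as Zbtb16. On the deviations from the group means the list was another one, led by Scd2 (r = 0.992), a fatty acid desaturase, and by 1110012L19Rik, Strn4, Plod1 and Nfyc. None of the members was on either list, and Nr3c2 could not be, since its mean was below 1 FPKM.

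A longer list of 38 other glucocorticoid-induced genes was read beside the members, and 37 of them were tested, all but Tat. Of these, 27 were lower and 10 higher in the knockout, where 50.97% of all genes tested were lower, with a median log2 fold change of -0.17. At an unadjusted p under 0.05, 8 were lower (21.6%, against 3.36% of all genes) and 0 were higher, and limma called 0 after adjustment, as did voom. In 6 of the 37 (16.2%, against 6.42% of all genes) every knockout library lay below every WT library. This list and the lists in the paragraphs below were also chosen with results of these data known. Their shares are therefore no independent evidence.

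The lowest log2 fold change of that list was that of Pdk4, the kinase that shuts pyruvate dehydrogenase and spares glucose. Pdk4 was at 9.88, 14.98 and 15.9 FPKM in WT and at 4.24, 6.35 and 8.06 FPKM in KO, with a log2 fold change of -1.13 (SE 0.26, adjusted p = 0.270 by limma). Sult1a1, a sulfotransferase, was at 4.87, 5.18 and 4.86 FPKM in WT and 2.20, 3.15 and 2.83 FPKM in KO without overlap (log2 fold change -0.86, SE 0.15, adjusted p = 0.149 by limma). Glul, which encodes glutamine synthetase, had a log2 fold change of -0.46 and Foxo3, a forkhead factor of the fasting response, one of -0.29, both with groups that did not overlap. Klf15, a factor for amino acid and lipid use in heart muscle, had -0.71, Angptl4, an inhibitor of lipoprotein lipase, had -0.89, Map3k6 had -0.52, Fam107a had -0.93 and Ptgds had -1.09, each with overlapping groups. At the other end stood Cebpb at 0.37, Dusp1, the phosphatase that switches off MAP kinases, at 0.33 and Zfp36l2 at 0.12. The list was therefore not uniform.

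Most genes of the machinery around the receptor had small negative values. Of 20 chaperones, cofactors and ligand enzymes, 17 were lower and 3 higher, where 50.97% of all genes were lower. The median log2 fold change was -0.09, 3 were lower at an unadjusted p under 0.05 (15%, against 3.36% of all genes), and neither limma nor voom called any (0 of 20). In 5 of the 20 (25%, against 6.42% of all genes) every knockout library lay below every WT library. Fkbp4 encodes FKBP52, the co-chaperone that favours hormone binding and trades places with FKBP51. It was at 28.6, 30.9 and 26.4 FPKM in WT and at 20.2, 24.1 and 24.7 FPKM in KO, without overlap (log2 fold change -0.32, SE 0.12, adjusted p = 0.635 by limma). The other 2 at that p, named after their values were seen, were the chaperone Hspa8 at -0.46 and the adaptor Stip1 at -0.24. The HSP90 genes Hsp90aa1 and Hsp90ab1 had log2 fold changes of -0.08 and -0.15, and Ptges3, the p23 co-chaperone, had -0.16. Of these, only Hsp90ab1 had groups without overlap. Hsd11b1, which regenerates active corticosterone inside cells, was at 1.07, 1.14 and 1.203 FPKM in WT and 0.949, 1.17 and 0.909 FPKM in KO (log2 fold change -0.17, adjusted p = 0.980 by limma). Hsd11b2, which inactivates it, was scarce, with 6 to 30 fragments. Its groups did not overlap, and its log2 fold change was -0.68 (adjusted p = 0.817 by limma).

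Zbtb16 is also a gene of lymphocytes, and markers of several cell types moved with the groups. All 16 T cell markers had a negative log2 fold change, from -1.62 for Cd8a to -0.02 for Thy1 with a median of -1.12, and 14 were lower at an unadjusted p under 0.05 (87.5%, against 3.36% of all genes). Their summed level, which gives most weight to the most abundant markers, was 51.4 to 67.4 FPKM in WT and 42.3 to 43.3 FPKM in KO. None was at 0. In whole tissue, fewer cells of a type and less RNA per cell cannot be told apart. The T cell median was lowest in WT 3 among the WT mice, like Zbtb16, but among the knockout mice it was as low in KO 3, where Zbtb16 was highest, as in KO 2. Their part in the Zbtb16 difference was not tested.

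The 12 tested genes on a list for innate-like T cells and innate lymphoid cells lay on both sides of 0. Zbtb16 directs the development of some of these cells. Whether the listed genes are particular to them in whole heart was not checked, so the number of these cells cannot be read from the list. Of the 12 genes, 5 were lower and 7 higher, their median log2 fold change being 0.02 and the lowest value -0.59, that of Cxcr6. At an unadjusted p under 0.05 by limma, 2 were lower (16.7%, against 3.36% of all genes) and 0 were higher. In 2 of the 12 (16.7%, against 6.42% of all genes) every knockout library lay below every WT library. The summed level was 50.9 to 60.8 FPKM in WT and 43.1 to 52.4 FPKM in KO, so the groups overlapped. Slamf1, Sh2d1a and Il23r were too low to be tested. Among 13 other genes for BTB zinc finger proteins, relatives of Zbtb16, the median was 0.03, 4 were lower, and the range ran from -0.42 for Zbtb46 to 0.15 for Zbtb32.

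Markers of heart muscle, fat and red cells had negative log2 fold changes as well, and heart muscle and fat are tissues in which glucocorticoids act. All 10 cardiomyocyte markers had a negative log2 fold change, with a median of -0.72 and a summed level of 1074 to 2002 FPKM in WT and 709 to 1393 FPKM in KO. Of these, 4 were lower at an unadjusted p under 0.05 (40%, against 3.36% of all genes). In 1 (10%, against 6.42% of all genes) every knockout library lay below every WT library. The list's median level in KO 3 lay above that in WT 1. All 6 tested adipocyte markers were negative as well, with a median of -0.95 and sums of 51.0 to 73.7 and 31.4 to 51.2 FPKM. Of these, 1 was lower at an unadjusted p under 0.05 (16.7%, against 3.36% of all genes). In 1 (16.7%, against 6.42% of all genes) every knockout library lay below every WT library. In the list's median level KO 3 again lay above WT 1. The 5 tested red cell genes had a median of -1.29, and their sums were 228 to 366 FPKM in WT and 85.4 to 161 FPKM in KO. All 5 were lower at an unadjusted p under 0.05 (100%, against 3.36% of all genes). In all 5 (100%, against 6.42% of all genes) every knockout library lay below every WT library. The medians of the fibroblast, endothelial, smooth muscle, myeloid, neutrophil and B cell lists were 0.01, -0.14, 0.17, 0.09, 0.27 and 0.12. Limma called 0 genes of all these lists, as did voom. The part of these cell types in the lower Fkbp5, Tsc22d3, Mt1 and Pdk4 was not tested. Among the WT mice, the cardiomyocyte sum was lowest in WT 1, where Pdk4 was lowest, Fkbp5 and Tsc22d3 were highest and Mt1 lay between the other two.

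**Figure D4:**
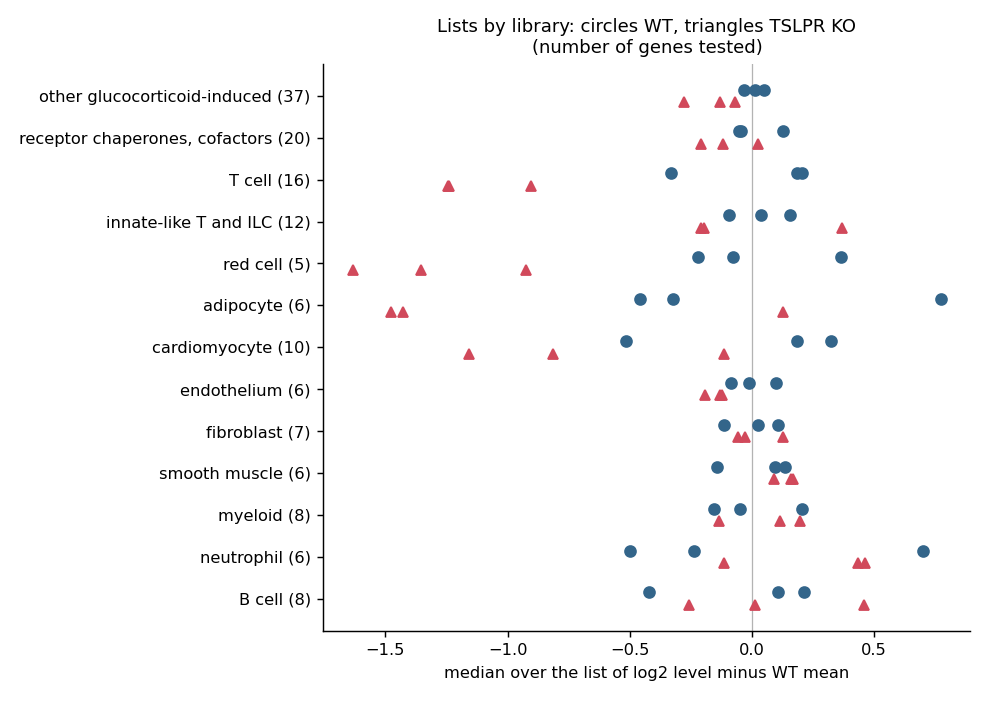
Median over each list of the log2 level minus the WT mean (x axis), for each of the 6 libraries (circles WT, triangles TSLPR KO) and 13 lists with the number of genes tested. KO libraries lie below all WT libraries for T cell and red cell genes and, by a smaller distance, for the other glucocorticoid-induced and the endothelial genes, while the chaperone, innate-like, adipocyte, cardiomyocyte, smooth muscle, fibroblast, myeloid, neutrophil and B cell lists overlap.

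Genes that overlap a member in the table held few fragments, at most 9 over all 6 libraries for each. This included the antisense gene Gm45774 at Mt2 and AC154912.1 at Fkbp5, which are named because a strand-specific counting was not stated. The positions in the table were those of GENCODE M21 for 7 of the 9 genes.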

How the data were processed

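RNA was sequenced from 6 mouse hearts, and the authors deposited 1 table of FPKM values per gene and library. The submitters' processing notes name HISAT2 2.0.5 and the builds mm10 and hg38, and the gene positions are those of mm10. Dividing the deposited FPKM by the value of 1 fragment gave whole numbers, within 0.01, for 100% of values above 0, so fragments per gene were recovered. They served for the filter (10 or more fragments in 3 or more libraries, and 15 in all), for scaling by trimmed means, for counting intervals, which cover counting error only, and for voom. The test was limma 3.58.1 in R 4.3.3 on log2(scaled FPKM + 0.1), all 6 libraries, no covariate, with trend and robust variance and Benjamini-Hochberg adjustment over all 15520 genes. Fold changes are on that scale, which understates those of low genes. Calls needed an adjusted p no higher than 0.05 and a log2 fold change of 0.5 or more in size. The study tested counts by another method, which was not used here. The main test kept the deposited unit, FPKM, and the recovered fragments were tested by voom only.

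The 9 genes, the gene lists and the tests were chosen with earlier results of these data known. The text names the members, Crlf2, the 3 highest and 3 lowest other induced genes and those with an unadjusted p under 0.05, the chaperones and enzymes Fkbp4, Hsp90aa1, Hsp90ab1, Ptges3, Hsd11b1 and Hsd11b2, the ends of each further list (1 of which is not reported here), the 5 genes most like Zbtb16 by each measure, and overlapping genes. The lists of clock and immediate-early genes are given under the observations. Replicates are separate mice by the study's design. Libraries of a group differed by far more than counting error, so each was counted as 1 mouse. Sequences are RefSeq's for GRCm38.p6. Alternatives were other pseudocounts, scalings and filters, voom, a block for replicate numbers, removal of haemoglobin and mitochondrial genes, and leaving out each library.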

Additional observations from a re-analysis of the deposited data

How the results depend on the processing

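Of 458 values recomputed under the alternatives, 442 were counted as the same, 10 moved and 6 turned in sign. Those that moved were the number of called genes, the median of the other glucocorticoid-induced genes and the median within-group r. A log2 fold change counted as the same where its sign and call were kept, whatever its size. The number of called genes without KO 2, which was 3, also counted as the same. None of the 8 genes other than Zbtb16 was called under any alternative, but few genes of the whole table were. The log2 fold change of Zbtb16 stayed negative in all 15 alternatives, from -2.05 with voom to -0.89 with a pseudocount of 1. The number of genes called in the whole table, 2 in the report, was 6 with no filter and 1 with the strict filter, and leaving out 1 library at a time gave 1 to 17, with 17 without KO 1 and 7 without WT 3. The median of the other glucocorticoid-induced genes ran from -0.25 without KO 2 to -0.17 without KO 1 when a library was left out, and it was -0.13 with a pseudocount of 1. With each library left out, the log2 fold change ran from -0.049 to 0.12 for Sgk1 (also -0.014 and -0.039 without WT 2 and KO 1), from -0.037 to 0.45 for Mt2 and from -0.15 to 0.040 for Nr3c1, and the median within-group r from -0.31 to 0.66. The cause of these shifts was not tested.

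With the replicate block, 4 genes of the whole table were called (1 higher, 3 lower), none of them among the 8 genes other than Zbtb16. Equal numbers were not read as pairs of mice, because no pairing is stated in the sources used here. The correlation of deviations between libraries that share a number was -0.02, 0.12 and 0.12. Libraries of unlike number were not compared in this way, so these values cannot settle whether mice were paired. Depth limits the precision of the low genes, with 36 to 63 fragments of Zbtb16 in the knockout libraries, 43 to 67 of Nr3c2 and 42 to 108 of Mt2 in all libraries, and the smallest difference that could be detected for them was not measured.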

Other observations

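Other early-response genes did not lean toward lower values. Of 10 immediate-early genes, 9 had a positive log2 fold change in the knockout and 1 a negative one, with a median of 0.19 and a range from -0.22 for Atf3 to 0.58 for Fos, a subunit of the AP-1 transcription factor. Limma and voom called 0 of them, and 1 of the 10 was higher at an unadjusted p under 0.05, against 3.2% of all genes. Of 16 genes of the circadian clock, whose phase glucocorticoids can shift, 4 were lower and 12 higher, with a median of 0.14, from -0.54 for Nr1d1 to 0.46 for Hlf. Limma and voom called 0 of these as well. At an unadjusted p under 0.05, 1 was lower (6.25%, against 3.36% of all genes) and 1 was higher, against 3.2% of all genes. The time of day of tissue collection is not given in the sources used here.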
